A study of Mus musculus with 2 samples.

Results

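Genes that build sterols and fatty acids, burn fatty acids and store them as triglyceride were compared between 2 regions of the mouse aorta. The set holds 38 genes, found on the array through probes that carry the current symbol or an older synonym of the gene. It comprises 11 enzymes of sterol synthesis, 5 sterol sensors and SREBP factors, 10 genes of fatty acid synthesis, 10 of fatty acid oxidation and 2 of triglyceride synthesis. All 38 were among the 27389 genes or transcripts on the array, with 73 of its 41150 probes. Of these 38 genes, 37 had a probe that both arrays read as well above background, and for all 37 this held in both regions. Acacb, the acetyl-CoA carboxylase of the mitochondrial surface, was not well above background in either region and has no ratio here.

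Cells make cholesterol from acetyl-CoA through the mevalonate pathway, and fatty acids from the same precursor through acetyl-CoA carboxylase and fatty acid synthase. Both routes are switched on by the SREBP transcription factors, which Scap carries out of the endoplasmic reticulum when sterols are low and which the Insig proteins hold back when sterols are high. Fatty acids are burned in mitochondria after activation to acyl-CoA and passage through the carnitine shuttle, a programme that the nuclear receptor PPAR-alpha switches on. Aortic smooth muscle uses lipid mainly for membranes and energy, whereas the fat around the vessel makes, stores and, where it is brown, burns it.

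RNA came from C57Bl/6 wild-type mice, a common inbred strain, aged 16 weeks. The atherosclerosis-prone region was the aortic arch with the aortic root and the start of the thoracic aorta, and the resistant region was the central thoracic aorta further along. Endothelium had been removed from the vessels with triton X-100, and RNA of 6 mice (3 males and 3 females) was combined into 1 pool for each region. The same 2 pools were hybridised to 2 dual-colour arrays with the dyes swapped, so that Cy5 marked the arch on array 1 and the thoracic aorta on array 2. The 2 arrays therefore count as 1 replicate. Each ratio is the log2 of the arch signal over the thoracic signal, as the mean of the arrays, with ± giving how far each array lay from the mean. This error is technical, so no difference between the regions has a biological replicate check and no test was run. Signals are normalised intensity units that include a background offset of 50, given for array 1 and then for array 2.

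Smooth muscle markers were present in both pools: all 7 were above background, with a median ratio of −0.00 and 0 called, and Lmod1, an actin-binding protein of smooth muscle, gave 3750 and 3565 in the arch against 3665 and 3649 in the thoracic aorta. Acta2 and Tagln were bright enough to saturate the scanner, so their levels are not compared, although their ratios are among the 7. Of 6 endothelial markers, 5 were measured, and Pecam1 gave 69 and 72 in the arch and 67 and 76 in the thoracic aorta, whereas Tie1 was not well above background. The smooth muscle markers farthest from 0 were the myosin Myh11 (−0.22 ± 0.03) and Cnn1 (−0.10 ± 0.12), followed by Smtn (0.06 ± 0.13) and Myocd (−0.06 ± 0.02). A gene was called where both arrays put it 1.5-fold or more to the same side. This held for 55 of 21367 measured genes in the higher direction (0.257%) and for 49 in the lower direction (0.229%), together 0.487%, and 93.1% of genes lay within 0.2 of 0 on the log2 scale. Of the calls, 52.9% were higher in the arch with loess normalisation, which adjusts ratios along signal strength, and 27.2% with each array only centred on its median. With such median centring the smooth muscle median was −0.17 and all 7 markers were below 0, as were 14023 of the 21367 genes.

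Among the 37 measured lipid genes, 1 was called higher in the arch, Dgat2, and 0 were called lower. In such bulk tissue, fewer cells of a type and less RNA per cell cannot be told apart. The median of the 37 was 0.03, against 0.00 for all measured genes, and −0.07 against −0.04 with median centring. At a lower bar of 1.1-fold in one direction on each array, chosen after seeing the data, 8 lipid genes were higher and 0 lower. Of all measured genes, 4.52% were higher and 3.46% lower. Among 5262 genes at least as bright as the median lipid gene, the same bar gave 7.87% higher and 6.75% lower. With median centring the bar gave 4 lipid genes higher and 9 lower, against 1.99% and 12.8% of all measured genes and 2.39% and 30.9% of the bright genes. The 8 genes were Dgat2, Scd1, Acadl, Fasn, Acadvl, Ppara, Hadhb and Cpt1b, of which 5 belong to oxidation, 2 to fatty acid synthesis and 1 to triglyceride synthesis. Both arch signals lay above both thoracic signals for 12 of the 37 genes and below them for 8, where 14.9% and 15.2% of all measured genes did so.

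**Figure D1:**
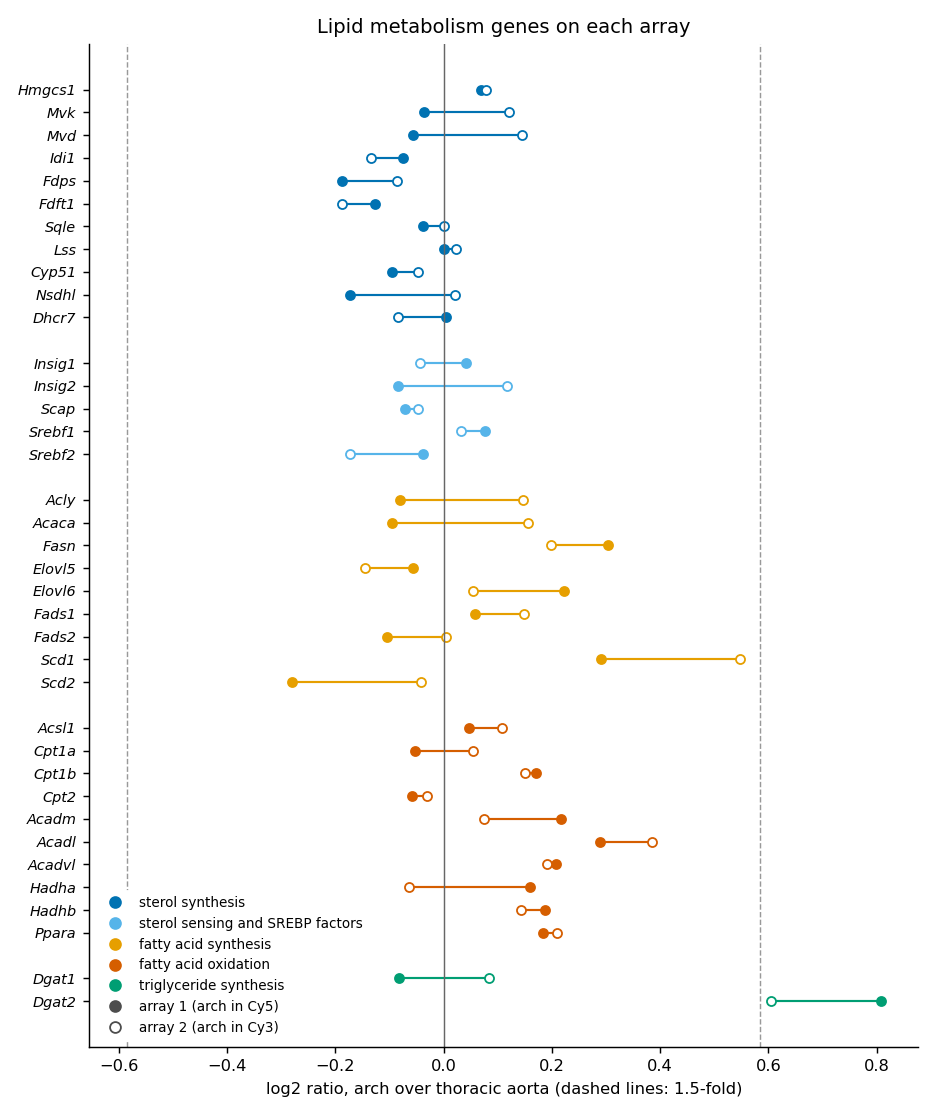
Log2 ratio of arch over thoracic aorta for the 37 measured lipid genes, with array 1 as a filled and array 2 as an open circle joined by a line, coloured by role. Dgat2 lies beyond the dashed 1.5-fold line on each array, the sterol genes stay within 0.2 of 0, and most oxidation genes lie to the right of 0. With median centring the oxidation median moves from 0.15 to −0.01.

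The enzymes of sterol synthesis differed little between the regions. None of the 11 was called, their ratios ranged from −0.16 to 0.07, and their median was −0.04, with −0.06 on array 1 and 0.00 on array 2. Of the 11, 2 were above 0 on each array and 4 below 0 on each, where 28.4% and 26.5% of all measured genes were. Hmgcs1, the synthase that makes HMG-CoA at the head of the pathway, had signals of 758 and 769 in the arch and 723 and 728 in the thoracic aorta. Both arch signals were above both thoracic signals by a small margin, a ratio of 0.07 ± 0.00 that turned to −0.09 with median centring.

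At the brightest probe, the lowest ratios were those of the enzymes that make and join the isoprenoid units. Idi1, which isomerises isopentenyl diphosphate, measured −0.10 ± 0.03. Fdps, which makes farnesyl diphosphate, gave 185 and 194 in the arch and 210 and 206 in the thoracic aorta (−0.14 ± 0.05). Fdft1, squalene synthase, gave 155 and 152 in the arch against 169 and 173 (−0.16 ± 0.03). For these 3 genes both arch signals were below both thoracic signals, but none reached 1.1-fold on each array. The dimmer second probe of Idi1 gave −0.01, that of Fdps 0.03 and that of Fdft1 −0.00. Ratios of such dim probes are compressed by the offset. In the scanner software's ratios the second probes gave −0.10, 0.10 and −0.07, and the brightest probes −0.12, −0.19 and −0.25. As the mean of a gene's probes, Cyp51 was the lowest (−0.09), ahead of Fdft1 (−0.08), Idi1 (−0.06) and Fdps (−0.06).

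The kinase Mvk and the decarboxylase Mvd, which act between Hmgcs1 and Idi1, changed sign between the arrays (0.04 ± 0.08 and 0.04 ± 0.10). Downstream of squalene, the epoxidase Sqle measured −0.02 ± 0.02, the cyclase Lss 0.01 ± 0.01 and the lanosterol demethylase Cyp51 −0.07 ± 0.02. The late enzymes Nsdhl and Dhcr7, which work on the sterol rings, measured −0.08 ± 0.10 and −0.04 ± 0.04. Signals of Mvk, Mvd, Sqle, Nsdhl and Dhcr7 overlapped between the regions. Sterol enzyme signals lay between 85.4 and 769 units.

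The regulators of the pathway had a similarly small range. Srebf2, the SREBP factor best known for sterol genes, gave 830 and 847 in the arch and 852 and 955 in the thoracic aorta (−0.11 ± 0.07), below the thoracic aorta on each array. Srebf1, the factor best known for fatty acid genes, measured 0.06 ± 0.02, with overlapping signals of 450 and 522 against 426 and 511, and −0.10 with median centring. The ratio of Srebf1 exceeded that of Srebf2 by 0.11 on array 1 and 0.21 on array 2. The escort protein Scap measured −0.06 ± 0.01. The retention proteins Insig1 and Insig2 measured −0.00 ± 0.04 and 0.02 ± 0.10 and changed sign between the arrays.

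A further 15 genes of sterol synthesis and its control gave a median of −0.03, and none was called. The highest were Nr1h3, the oxysterol receptor LXR-alpha (0.11 ± 0.07), and Mbtps2, a protease that cuts SREBP (0.04 ± 0.05). Of the 15, 2 were above 0 on each array and 6 below 0 on each, where 28.4% and 26.5% of all measured genes were. Among those 6 were the ring enzymes Hsd17b7 (−0.11 ± 0.03) and Tm7sf2 (−0.11 ± 0.05).

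Outside the array, the 8 of 11 sterol synthesis enzymes with a promoter sequence at hand shared a promoter element. Fdps, Fdft1 and Sqle had no sequence at hand and were not searched. RefSeq promoters (GRCm38.p6) were available for 29 of the 38 genes and were searched on both strands over the 250 bases before the start for the NF-Y box (CCAAT), a sterol regulatory element (TCACNCCAC) and the E-box (CACGTG). The NF-Y factor is known to act beside SREBP at many lipid gene promoters. An NF-Y box stood before 8 of 8 sterol synthesis genes, in at least 1 of their starts, against 37.5% of all 27025 genes in the table. Of these 8 genes, 6 had at least 2 such boxes in a window, as did 1 of 5 sensors and SREBP factors, 2 of 7 fatty acid synthesis genes, 1 of 9 oxidation genes and 11.5% of all genes. A single box or more stood before 4 of 5 sensors and SREBP factors, 3 of 7 fatty acid synthesis genes and 2 of 9 oxidation genes. The sterol regulatory element in this spelling stood before Hmgcs1 and Acsl1 alone among the 29, and before 1.22% of all genes. The E-box stood before 4 of the 29 and 6.86% of all genes. No overlap between different motifs was found in these windows, and a match of letters is a description, not a site.

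The 200 bases before the start of Hmgcs1 (chr13:119690151-119690350, plus strand) and Mvk (chr5:114444069-114444268, plus strand) are shown because Hmgcs1 carries the sterol regulatory element and Mvk the most NF-Y boxes of the 29 genes. Capitals mark NF-Y boxes, read as CCAAT or, on the other strand, ATTGG, and in Hmgcs1 also the sterol regulatory element that starts 137 bases before the start.
Hmgcs1: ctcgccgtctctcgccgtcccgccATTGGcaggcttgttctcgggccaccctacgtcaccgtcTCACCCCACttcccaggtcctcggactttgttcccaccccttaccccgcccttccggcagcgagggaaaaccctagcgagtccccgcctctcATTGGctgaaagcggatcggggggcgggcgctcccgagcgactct
Mvk: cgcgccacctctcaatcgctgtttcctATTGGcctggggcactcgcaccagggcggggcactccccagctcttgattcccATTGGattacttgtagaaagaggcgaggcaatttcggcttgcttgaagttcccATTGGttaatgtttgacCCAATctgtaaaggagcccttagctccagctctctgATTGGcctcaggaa
The Mvk stretch holds 5 NF-Y boxes, and the Hmgcs1 stretch holds 2 beside the sterol regulatory element. The array ratios of these 2 genes were 0.04 and 0.07.

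Fatty acid synthesis was mixed: Scd1 and Fasn were higher in the arch, Scd2 was lower, and the group had no common direction. None of the 9 measured genes was called. Their median was 0.03, with −0.06 on array 1 and 0.15 on array 2, so its sign rested on which array was read, and it was −0.01 with median centring. Ratios ran from −0.16 to 0.42, a wider range than that of the sterol enzymes.

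Scd1, the stearoyl-CoA desaturase that makes oleate, gave 953 and 1072 in the arch and 780 and 733 in the thoracic aorta. All arch signals were above all thoracic signals, and the ratio was 0.42 ± 0.13, or 1.34-fold, with 0.29 on array 1 and 0.55 on array 2, and 0.25 with median centring. Its close relative Scd2 gave 497 and 562 in the arch and 602 and 579 in the thoracic aorta, below on each array (−0.16 ± 0.12, and −0.32 with centring). The ratio of Scd1 exceeded that of Scd2 by 0.57 on array 1 and 0.59 on array 2, so the contrast within the pair repeated more closely than either gene did. It was 0.57 with median centring. Probes named for the other desaturases Scd3 and Scd4 measured 0.03 ± 0.07 and −0.02 ± 0.03, and desaturase probes may share near-identical sequence.

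Fasn, the fatty acid synthase, gave 5218 and 5000 in the arch and 4227 and 4356 in the thoracic aorta. The regions did not overlap, and the ratio was 0.25 ± 0.05. A second, dimmer Fasn probe gave 0.01 ± 0.03, so the difference rests on the bright probe. With median centring the bright probe gave 0.08. The 200 bases before the Fasn start (chr11:120824548-120824747, minus strand) are shown for comparison with the sterol genes. They hold 3 NF-Y boxes in capitals, the last 2 of which overlap each other as CCAATTGG.
Fasn: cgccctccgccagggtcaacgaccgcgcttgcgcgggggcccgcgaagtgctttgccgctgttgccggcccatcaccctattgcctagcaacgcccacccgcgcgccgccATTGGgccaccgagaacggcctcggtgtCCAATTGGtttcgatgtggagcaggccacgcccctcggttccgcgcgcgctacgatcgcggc

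Upstream of Fasn, the citrate lyase Acly (0.03 ± 0.11) and the carboxylase Acaca (0.03 ± 0.13) changed sign between the arrays. Among chain-lengthening enzymes, Elovl6 measured 0.14 ± 0.08 with overlapping signals of 227 and 238 against 194 and 229. Elovl5, which lengthens polyunsaturated chains, measured −0.10 ± 0.04, with 736 and 672 in the arch below 765 and 743 in the thoracic aorta. The ratio of Elovl6 exceeded that of Elovl5 by 0.28 and 0.20 on the 2 arrays. The desaturases of polyunsaturated fatty acids, Fads1 and Fads2, measured 0.10 ± 0.05 and −0.05 ± 0.05, and −0.01 and −0.20 with centring.

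Of 13 further genes of fatty acid synthesis 12 were measured, Elovl4 being the exception, and none was called (median 0.02, and −0.09 with centring). The highest was Thrsp, which encodes a nuclear protein of lipogenic tissues, with 1036 and 1086 in the arch and 810 and 742 in the thoracic aorta (0.45 ± 0.10, and 0.29 with centring). Next came the enoyl-CoA reductase Tecr at 0.06 ± 0.28, with opposite signs on the arrays. The lowest were Hsd17b12, a ketoacyl-CoA reductase of chain lengthening (−0.19 ± 0.03), and Elovl1 (−0.12 ± 0.05).

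**Figure D2:**
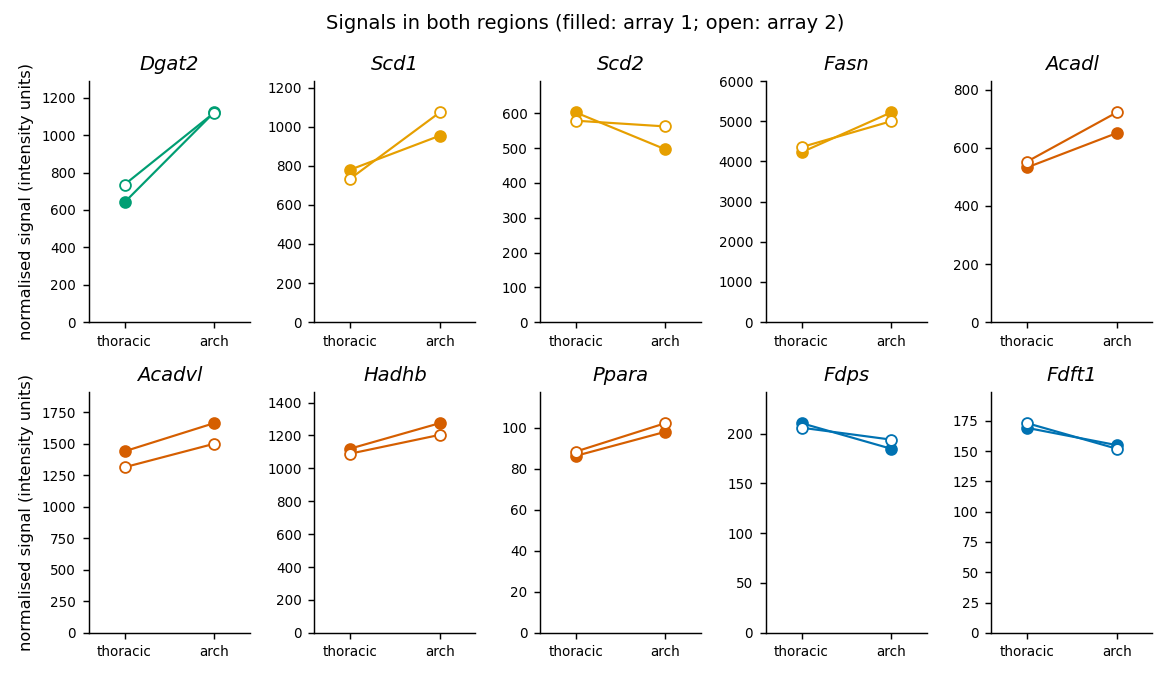
Normalised signal in intensity units (offset of 50 included, axes from 0) in the thoracic aorta and the arch for 10 lipid genes, with array 1 filled and array 2 open and a line for each array. Lines rise toward the arch for Dgat2, Scd1, Fasn, Acadl, Acadvl, Hadhb and Ppara and fall for Scd2, Fdps and Fdft1; panels have their own scales and levels are not compared between genes.

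Oxidation genes leaned toward the arch with loess normalisation, where 9 of 10 had a ratio above 0. So did 10995 of all 21367 measured genes and 2513 of the 5262 bright genes. With median centring 4 of the 10 were above 0, against 7344 of all measured genes and 539 of the bright genes. With loess, 7 of the 10 were above 0 on each array, against 28.4% of all measured genes and 29.2% of genes at least as bright as the median lipid gene. Of those bright genes, 32.1% were below 0 on each array. The group median was 0.15 (0.18 on array 1 and 0.13 on array 2), but −0.01 with median centring, where genes at least as bright as the median lipid gene had a median of −0.16 and all genes −0.04. The oxidation median thus lay above that of the bright genes by 0.16 with loess and by 0.15 with centring, and above that of all genes by 0.15 and 0.03. This excess with centring was not particular to oxidation. The fatty acid synthesis median lay above the bright genes by 0.15 and above all genes by 0.03 with centring, and by 0.04 and 0.03 with loess. The bright genes are not matched in brightness to the oxidation genes, since Ppara, Cpt1b and Hadha were dimmer than the median lipid gene. None of the 10 oxidation genes was called. At the 1.1-fold bar 5 were higher and 0 lower with loess. The shares were 4.52% and 3.46% of all measured genes and 7.87% and 6.75% of the bright genes. With centring 2 were higher and 1 lower, against 1.99% and 12.8% of all measured genes and 2.39% and 30.9% of the bright genes. The oxidation median exceeded the sterol synthesis median by 0.19 with loess and by 0.08 with centring.

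The acyl-CoA dehydrogenases take the first step of each round of the cycle. Acadl, the long-chain enzyme, gave 651 and 722 in the arch and 533 and 553 in the thoracic aorta. The regions did not overlap, and the ratio was 0.34 ± 0.05, or 1.26-fold, and 0.17 with centring. Acadvl, the very-long-chain enzyme, gave 1664 and 1501 in the arch and 1441 and 1314 in the thoracic aorta (0.20 ± 0.01, and 0.03 with centring). Acadm, the medium-chain enzyme, gave 1861 and 1863 against 1602 and 1769 (0.15 ± 0.07, and −0.02 with centring). Acadl had the highest ratio of the 3 on each array, by 0.07 and 0.31 over Acadm and by 0.08 and 0.19 over Acadvl.

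The later steps are carried by the trifunctional protein. Its beta subunit Hadhb gave 1275 and 1204 in the arch and 1120 and 1089 in the thoracic aorta (0.17 ± 0.02, and −0.00 with centring). Its alpha subunit Hadha measured 0.05 ± 0.11, with opposite signs on the arrays, and −0.07 with centring. Acadl lacked all 3 motifs in the 250 bases before its start, and the last 200 of these (chr1:66863310-66863509, minus strand) are shown as the counterpart of the sterol promoters, with no capitals.
Acadl: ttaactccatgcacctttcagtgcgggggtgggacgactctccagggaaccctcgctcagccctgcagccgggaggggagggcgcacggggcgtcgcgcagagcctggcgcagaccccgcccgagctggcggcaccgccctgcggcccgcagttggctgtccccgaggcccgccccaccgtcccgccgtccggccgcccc

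Fatty acids enter mitochondria through activation and the carnitine shuttle. Acsl1, which activates long-chain fatty acids, measured 0.08 ± 0.03 (−0.09 with centring), with 1647 and 1595 in the arch and 1593 and 1480 in the thoracic aorta. Of the isoforms of the outer carnitine palmitoyltransferase, Cpt1b, the muscle form, gave 193 and 195 in the arch and 172 and 176 in the thoracic aorta (0.16 ± 0.01, and 0.06 with centring). The widespread form Cpt1a measured 0.00 ± 0.05, and −0.13 with centring. The ratio of Cpt1b exceeded that of Cpt1a by 0.22 and 0.10 on the 2 arrays. Cpt2, the inner enzyme, measured −0.04 ± 0.01, and −0.21 with centring. Ppara, which encodes PPAR-alpha, was dim, at 98 and 102 in the arch and 86 and 88 in the thoracic aorta. Its ratio was 0.20 ± 0.01 with the offset of 50, 0.42 with an offset of 0 and 0.53 in the scanner software's ratios, so its size depended on the background correction.

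Of 35 further oxidation genes 34 were measured, Ucp3 being the exception. Their median was 0.05, 27 were above 0 and 21 were above 0 on each array. Of all 21367 measured genes, 10995 were above 0, and 28.4% were above 0 on each array. With median centring 15 of the 34 were above 0 and 8 above 0 on each array, against 7344 and 4035 of all measured genes. Below 0 on each array with centring were 13 of the 34 and 10079 of all measured genes. Pdk4 alone was called: this kinase, which shuts glucose carbon out of the mitochondrial cycle when fat is burned, gave 329 and 335 in the arch and 199 and 203 in the thoracic aorta (0.73 ± 0.00). Next were Eci1, an enoyl-CoA isomerase (0.32 ± 0.12), and Acot1, an acyl-CoA thioesterase (0.32 ± 0.03). The lowest were Acox3, a peroxisomal oxidase (−0.10 ± 0.10), and Crot, the peroxisomal carnitine transferase (−0.09 ± 0.12). With median centring the median of the 34 was −0.03, above the bright genes by 0.14 and above all genes by 0.02, and Pdk4 gave 0.60 ± 0.03 and was no longer called, since it missed 1.5-fold on 1 array.

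**Figure D3:**
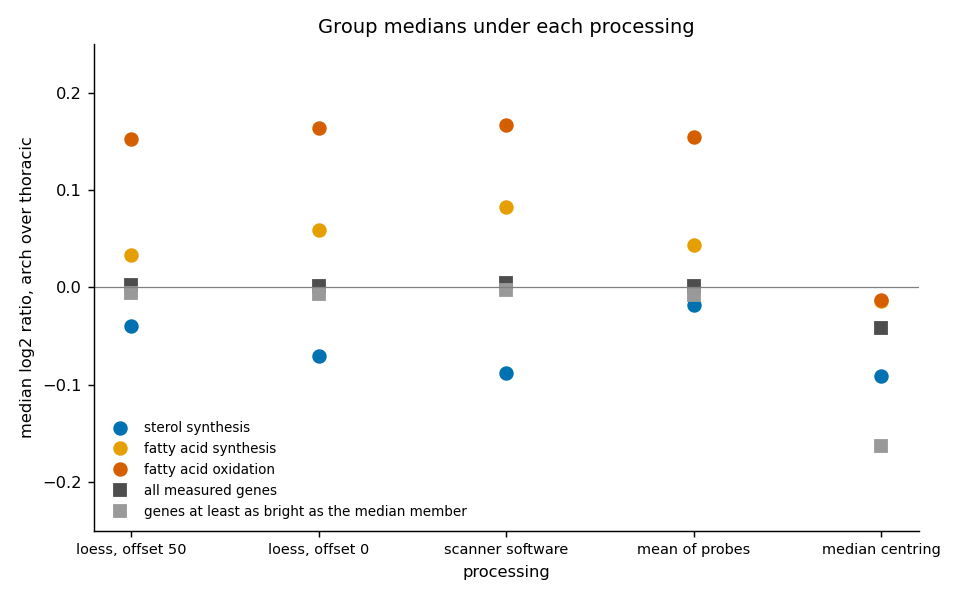
Median log2 ratio of 3 lipid gene groups (circles), of all measured genes and of genes at least as bright as the median lipid gene (squares) under each of 5 processings. The oxidation median lies above the sterol synthesis median under each, but with median centring it drops from 0.15 to −0.01 while the bright genes drop from −0.01 to −0.16.

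Triglyceride synthesis held the one called gene of the set. Dgat2, an acyltransferase that adds the last fatty acid to triglyceride, gave 1121 and 1119 in the arch and 641 and 736 in the thoracic aorta. The regions did not overlap, and the ratio was 0.71 ± 0.10, or 1.63-fold, with 0.81 on array 1 and 0.61 on array 2. Its other 2 probes gave 0.43 ± 0.04 and, for the dimmest, 0.16 ± 0.17. In the scanner software's ratios the 3 probes gave 0.76, 0.63 and 0.37. The call was lost when the probes were averaged (0.43) and with median centring (0.54). Dgat1, the other enzyme of the same step and no relative in sequence, gave 102 and 118 in the arch and 108 and 111 in the thoracic aorta (0.00 ± 0.08). The ratio of Dgat2 exceeded that of Dgat1 by 0.89 on array 1 and 0.52 on array 2.

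Of 13 further genes of fatty acid activation and glyceride synthesis 12 were measured, all but Acsl6, and none was called (median 0.04, and −0.01 with centring). The highest were the acyltransferases Agpat2 (0.18 ± 0.07) and Agpat3 (0.16 ± 0.04), and the lowest the acyl-CoA synthetases Acsl5 (−0.12 ± 0.03) and Acsl3 (−0.06 ± 0.06).

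**Figure D4:**
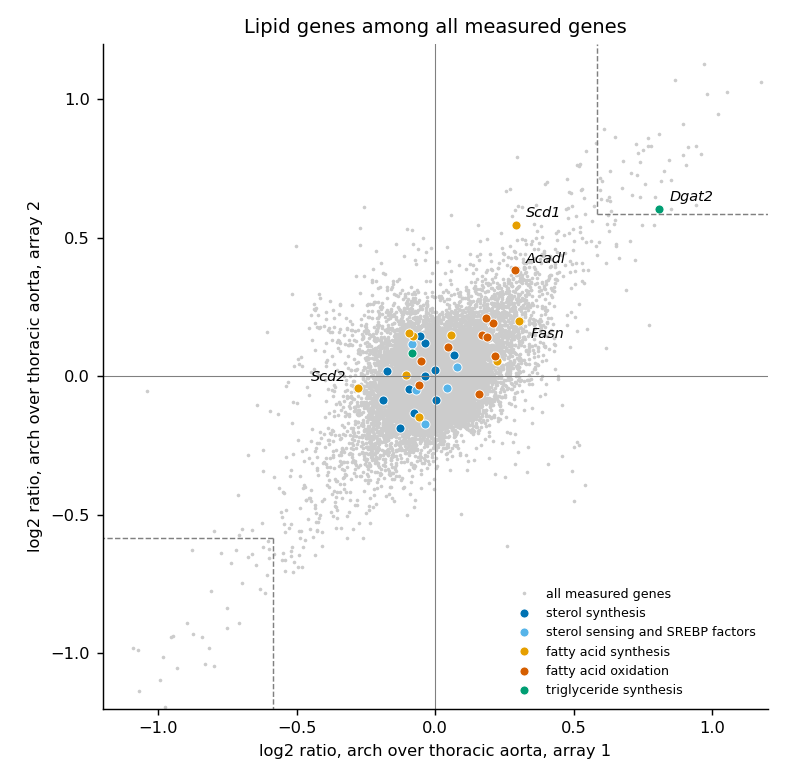
Log2 ratio on array 1 against that on array 2 for all measured genes within 1.2 of 0 (grey) and for the 37 lipid genes, coloured by role, with dashed corners at 1.5-fold. Dgat2 is the one lipid gene inside a corner, and Scd1, Acadl and Fasn stand outside the dense centre toward the arch.

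Markers of fat were also higher in the arch pool, as were those of heart muscle and mesothelium. Of 10 brown adipocyte markers 4 were called higher (median 0.27): Cox7a1 (0.89 ± 0.05), Cidea (0.81 ± 0.03), Cox8b (0.78 ± 0.07) and Dio2 (0.76 ± 0.02). Ucp1, the uncoupling protein that defines brown fat, gave 1661 and 2016 in the arch and 1206 and 1569 in the thoracic aorta (0.41 ± 0.05). The summed signal of the 10 was 11318 and 11020 in the arch and 6979 and 7318 in the thoracic aorta. With centring the median was 0.19 and 1 of the 10 was called, and with the scanner software's ratios the median was 0.45 with 4 called. Elovl3 and Ppargc1a stand both on this list and on the further lipid lists.

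Of 10 general adipocyte markers 3 were called higher (median 0.35): Pck1 (0.78 ± 0.04), Plin1, the coat protein of lipid droplets (0.68 ± 0.00), and the hormone Adipoq (0.66 ± 0.06). Pnpla2, a triglyceride lipase, measured 0.38 ± 0.03. Their summed signal was 43837 and 42470 in the arch and 32825 and 33799 in the thoracic aorta, and with centring the median was 0.18 with 0 called. Lep, encoding leptin, was dim at 76 and 70 in the arch and 73 and 69 in the thoracic aorta. Not every fat marker was higher, since Retn, encoding resistin, measured −0.25 ± 0.03, the brown fat regulator Prdm16 −0.19 ± 0.06 and the elongase Elovl3 −0.10 ± 0.02. The part of these fat markers in the ratios of Dgat2, Scd1, Fasn and the oxidation genes was not tested.

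Among 10 cardiomyocyte markers 9 were measured and 3 were called higher (median 0.24): Myl7, the atrial myosin light chain (2.33 ± 0.01), Tnnt2, cardiac troponin T (1.59 ± 0.03), and Sln (0.87 ± 0.04), while Nppa measured 0.28 ± 0.03. The actin Actc1 (−0.05 ± 0.11) and Myl2 (−0.05 ± 0.04) were not higher. The summed signal of the 9 was 15287 and 15150 in the arch and 13868 and 15719 in the thoracic aorta. Most of it was Actc1, at 13035 and 12803 in the arch and 12551 and 14336 in the thoracic aorta. Myh6, the cardiac myosin heavy chain, was not well above background in either region. Heart muscle also burns fatty acids, and the part of these markers in the oxidation ratios was not tested. The 6 mesothelial markers were all above 0 (median 0.42, 0 called), led by Upk3b (0.65 ± 0.12), Msln (0.54 ± 0.05), Krt19 (0.43 ± 0.15) and Krt8 (0.41 ± 0.01), with summed signals of 1916 and 2034 against 1418 and 1463. Their median was 0.60 with 1 called at an offset of 0, and 0.66 with 3 called in the scanner software's ratios. The 6 macrophage markers were all below 0 (median −0.21, 0 called), with Tyrobp at −0.35 ± 0.03, Lyz2 at −0.29 ± 0.13, Adgre1 at −0.26 ± 0.07 and Cd14 at −0.16 ± 0.05, and summed signals of 22162 and 20020 against 24967 and 26532. The 6 peripheral nerve markers had a median of 0.05 (−0.03 with centring) and 0 called, with Pmp22 at 0.12 ± 0.05 and S100b at 0.12 ± 0.12. The 5 measured endothelial markers had a median of −0.02 (0.02 with centring) and 0 called, with Vwf at 0.26 ± 0.02 and Kdr at 0.18 ± 0.05.

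**Figure D5:**
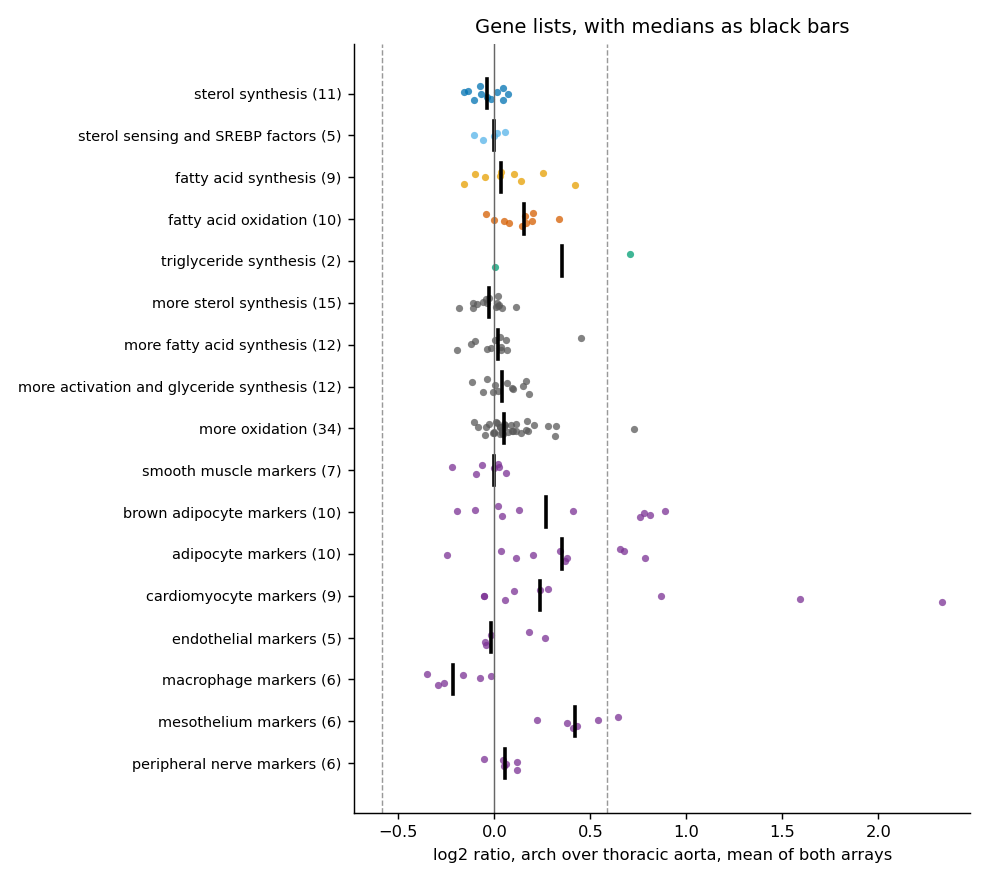
Log2 ratio of arch over thoracic aorta, mean of both arrays, for each measured gene of the lipid groups (coloured), the further pathway lists (grey) and the marker lists (purple), with the number of genes in brackets, medians as black bars and dashed lines at 1.5-fold. The fat, cardiomyocyte and mesothelium markers have medians from 0.24 to 0.42 and the oxidation genes 0.15, while the sterol genes lie at −0.04; with median centring the medians of oxidation, fatty acid synthesis, their further genes, activation and peripheral nerve fall below 0 and that of endothelium rises above it.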

How the data were processed

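Per the labels, RNA was amplified and labelled in Cy3 and Cy5, and the submitters' processing notes name Agilent Feature Extraction 9.1.1.1 as the software that read the arrays. Per the file headers, the deposited scanner files give each spot's mean signal and local background as intensity, and a log10 ratio of the processed signals. The series' value table held the same log10 ratio, with the arch as numerator, for 99.9% of features (tolerance 1e-06), as found from this match; the deposited table states neither scale nor direction.

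Background was corrected by normexp (offset 50) and ratios were normalised by loess (limma 3.58.1, R 4.3.3), control spots at weight 0. Levels were also scaled between arrays (Aquantile). Outlier spots (20 and 4) were left out. Probes that both arrays read as well above background in 1 or both regions were kept (30521 of 41150), and a gene took its brightest kept probe. Median spot signals were 87.1 to 97.1 units, over backgrounds of 40 to 48. Names came from a RefSeq table (GRCm38.p6): 23134 spots matched by accession, 6786 by name, 3516 by synonym, and 8098 kept the file's name. The normalisation and call rule were tested on simulated data. The genes, lists and motifs were chosen with earlier results of these data known. All 38 lipid genes are named, with, of each other list, the genes called and the 2 highest and 2 lowest (markers: up to 4 largest). Tie1, Acta2, Tagln, Lmod1, Pecam1, Actc1, Myl2, Elovl3, Scd3, Scd4, Hsd17b7, Acot1, Ucp1, Lep, Retn, Prdm16 and Myh6 were named outside this rule. A gene that the rule picks is not reported here. Alternatives were the offset, the scanner's ratios, the value table, median centring, the probe filters, the mean of a gene's probes, other folds and each array alone.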

Additional observations from a re-analysis of the deposited data

How the results depend on the processing

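With 1 pool per region, no p-value or biological error can be given, and dim genes are compressed by the offset of 50. Across 9 alternatives, 17 of 37 lipid genes kept their sign: Fasn, Elovl6, Scd1, Cpt1b, Acadl, Acadvl, Ppara and Dgat2 above 0, and Idi1, Fdps, Fdft1, Cyp51, Scap, Srebf2, Elovl5, Scd2 and Cpt2 below 0. These alternatives are not independent. The probe filters left the ratios of the 37 genes unchanged, and the value table repeated the scanner's ratios. The single arrays are the parts of the main mean. Genes higher among all measured numbered 117 with an offset of 0, 152 with the scanner's ratios and with the value table, 28 with median centring, 134 at 1.3-fold, 9 at 2-fold and 965 at 1.1-fold, a bar chosen after seeing the data, and 72 to 81 on single arrays. Genes lower numbered 104, 128, 128, 75, 112, 15 and 739, and 62 to 67 on single arrays. Lipid genes called higher numbered 0 with median centring, with the mean of a gene's probes and at 2-fold, and 8 at 1.1-fold. The sterol synthesis median was −0.088 with the scanner's ratios and the value table, −0.091 with median centring, and −0.056 to 0.0014 on single arrays. The oxidation median was −0.013 with median centring and 0.126 to 0.177 on single arrays, and its excess over the sterol median was 0.078 and 0.124 to 0.233. The fatty acid synthesis median ranged from −0.057 to 0.148 on single arrays. Calls went from 52.9% higher to 27.2% higher with median centring. The cause of these shifts was not tested. No paired analysis was possible because both arrays hold the same 2 pools and no group has a second sample.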

Other observations

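Several lipid genes were read by more than 1 probe, and these probes also differed in brightness. Of the 37 lipid genes 20 had more than 1 kept probe, and for 18 of them the probes lay within 0.2 of each other on the log2 scale. The exceptions were Fasn and Dgat2, whose bright probes had the higher ratios. Probes of opposite sign were found for 9 of the 20. Acaca, with 4 kept probes, ran from −0.03 to 0.10, and Srebf2, with 3, from −0.11 to 0.02. The probe pairs of Cpt1b gave 0.16 and 0.17.

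Cpt1a was spotted 10 times on each array with 1 probe, which shows the spread between spots of one hybridisation. Its spots averaged −0.05 with an SD of 0.06 on array 1 and 0.05 with an SD of 0.04 on array 2, so the means lay farther apart than either SD. The spots ranged from −0.15 to 0.04 on array 1 and from −0.01 to 0.12 on array 2, so these ranges overlapped. Above 0 were 2 of 10 spots on array 1 and 9 of 10 on array 2.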
